A study of Mus musculus with 4 samples.

Results

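The regions described here are 651 peaks of open chromatin, of 5332 in the deposited table, that the table placed outside genes and that gained accessibility by less than a doubling in Sin3B-/- long-term hematopoietic stem cells (LT-HSCs). They were chosen by their place and by their fold. Each was annotated upstream or downstream of its closest gene, more than 1000 bases from the nearest edge of that gene and outside a window from 1000 bases before to 100 bases after its start. Each also had a log2 fold, Sin3B-/- over Sin3B+/+, above 0 and below 1. Because the fold chose them, the levels and folds below are a description and carry no test. They are called distal modest gains here. The table also held 281 distal peaks that had doubled or more, 81 distal losses, 1551 modest gains at gene starts and 1606 modest gains inside gene bodies.

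Accessibility was measured by ATAC-Seq in 4 libraries, 2 from Sin3B+/+ and 2 from Sin3B-/- LT-HSCs, each made from cells pooled from 2 mice. In the Sin3B-/- mice, floxed Sin3B was deleted by Vav1-iCre, a Cre recombinase active throughout the hematopoietic system, so the loss was not restricted to stem cells. The mice were on a C57BL/6 background, their age is not given for these libraries, and the controls, labelled WT, are named Sin3B+/+ or Sin3B F/F in the study; which control mice carried floxed alleles or Cre is not given in the sources used here. LT-HSCs were sorted from bone marrow as Lineage-Sca-1+cKit+Flk2-CD48-CD150+ cells, from mice at homeostasis. The sort could be looked at in the table only through regions that differed between genotypes. Of 10 genes of LT-HSC identity or of the sort, Slamf1, Procr and Meis1 had such regions, and of 12 genes of other marrow cells Klf1, Pf4, Itga2b and Csf1r did. Each of these was a gain, and their part in the results was not tested. No region of the table was annotated to Sin3b, so the deletion itself could not be checked.

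Sin3B is a scaffold protein that brings histone deacetylases to DNA-bound factors and is known for repressing transcription, including that of cell cycle genes in quiescent cells. Chromatin that is open away from gene starts often marks enhancers or insulator elements, which are bound by lineage factors of the ETS, RUNX, GATA and SCL families in blood stem cells, or by CTCF at boundaries. ATAC-Seq reads such sites because the Tn5 transposase inserts more readily into DNA free of nucleosomes.

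The central 200 bases of 12 distal modest gains are shown, from the forward strand of GRCm38. They are the members with the highest level that hold a given motif and members beside genes of stem cell, myeloid or adhesion lists, and the values below refer back to them. Capitals mark matches, on either strand, to AGGAAGT for ETS factors, TGTGGTT for RUNX factors, AGATAAG for the Gata family, TGANTCA for AP-1, CAGATG for the SCL E-box, TGACAG for MEIS, the IRF element, and the CTCF core with at most 1 mismatch, and matches that overlap or touch run together.
Gm25148, highest level with ETS and IRF, chr13:56159160-56159359: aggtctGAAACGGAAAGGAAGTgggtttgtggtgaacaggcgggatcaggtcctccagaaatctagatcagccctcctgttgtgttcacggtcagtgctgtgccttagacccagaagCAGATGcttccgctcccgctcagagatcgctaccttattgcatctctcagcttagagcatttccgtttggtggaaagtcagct
AC091309.2, highest level with RUNX, chr17:83990636-83990835: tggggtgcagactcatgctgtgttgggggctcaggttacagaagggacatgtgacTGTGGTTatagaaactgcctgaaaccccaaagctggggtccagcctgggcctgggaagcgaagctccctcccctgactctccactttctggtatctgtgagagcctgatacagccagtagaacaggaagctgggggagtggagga
Pdcd1, highest level with GATA, chr1:94035338-94035537: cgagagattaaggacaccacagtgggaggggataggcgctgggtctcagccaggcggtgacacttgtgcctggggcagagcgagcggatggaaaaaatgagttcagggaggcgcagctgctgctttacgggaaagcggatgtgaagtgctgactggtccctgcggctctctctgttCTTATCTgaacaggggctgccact
4921511I17Rik, highest level with AP-1, chr12:12496720-12496919: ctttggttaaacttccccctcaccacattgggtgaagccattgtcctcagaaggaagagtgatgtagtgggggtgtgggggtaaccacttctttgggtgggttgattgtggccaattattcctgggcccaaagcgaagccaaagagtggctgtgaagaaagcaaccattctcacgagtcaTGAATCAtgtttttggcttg
1700096J18Rik, highest level with a CTCF core without mismatch, chr11:109331508-109331707: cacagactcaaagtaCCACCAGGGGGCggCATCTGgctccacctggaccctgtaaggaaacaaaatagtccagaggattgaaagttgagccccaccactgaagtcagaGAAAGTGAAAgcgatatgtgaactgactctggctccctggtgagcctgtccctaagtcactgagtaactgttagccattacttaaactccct
Lmo2, chr2:103945007-103945206: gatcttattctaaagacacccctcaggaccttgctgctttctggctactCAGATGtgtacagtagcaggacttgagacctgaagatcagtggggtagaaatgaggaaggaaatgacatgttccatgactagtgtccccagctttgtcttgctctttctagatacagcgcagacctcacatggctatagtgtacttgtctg
Gm13876, toward Lmo2, chr2:103893848-103894047: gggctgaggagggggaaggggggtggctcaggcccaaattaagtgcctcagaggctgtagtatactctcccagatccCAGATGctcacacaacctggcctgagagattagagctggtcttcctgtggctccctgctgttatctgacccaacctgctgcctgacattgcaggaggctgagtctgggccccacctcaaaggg
AC132455.2, toward Zfp36l2, chr17:84114037-84114236: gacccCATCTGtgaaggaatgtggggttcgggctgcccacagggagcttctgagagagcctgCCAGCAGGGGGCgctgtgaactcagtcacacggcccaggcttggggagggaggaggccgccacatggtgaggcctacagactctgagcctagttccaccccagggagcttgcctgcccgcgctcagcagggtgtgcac
Grasp, toward Nr4a1, chr15:101240826-101241025: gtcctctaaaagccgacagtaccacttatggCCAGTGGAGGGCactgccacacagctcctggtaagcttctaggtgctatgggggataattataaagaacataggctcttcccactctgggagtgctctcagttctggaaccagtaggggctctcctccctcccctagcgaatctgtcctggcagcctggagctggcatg
Tgfbr1, chr4:47351527-47351726: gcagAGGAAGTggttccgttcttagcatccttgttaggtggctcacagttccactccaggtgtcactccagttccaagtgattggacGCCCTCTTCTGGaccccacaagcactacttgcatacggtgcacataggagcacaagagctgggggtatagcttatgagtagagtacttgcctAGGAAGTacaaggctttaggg
Cebpe, chr14:54705927-54706126: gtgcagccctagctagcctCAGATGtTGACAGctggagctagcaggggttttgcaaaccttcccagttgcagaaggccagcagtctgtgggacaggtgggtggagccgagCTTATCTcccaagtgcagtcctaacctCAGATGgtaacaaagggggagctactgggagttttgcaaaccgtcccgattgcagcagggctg
Tmem201, toward Pik3cd, chr4:149710622-149710821: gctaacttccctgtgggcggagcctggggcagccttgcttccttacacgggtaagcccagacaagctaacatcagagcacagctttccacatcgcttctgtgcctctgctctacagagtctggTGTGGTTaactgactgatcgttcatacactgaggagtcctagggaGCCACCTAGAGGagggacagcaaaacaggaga
The ETS and IRF matches of the Gm25148 peak overlapped, and so formed 1 block of capitals. Of the 3 members on the upstream side of Lmo2, the 2 shown each held 1 E-box and the third, annotated to Gm13881, held none in its central window. In addition, the member beside Cebpe held 2 E-boxes, a MEIS and a GATA match. The windows labelled Tgfbr1, Zfp36l2, Nr4a1, Pik3cd and 1700096J18Rik each held a CTCF core match. A match is a run of letters and does not show that a factor was bound.

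In each library the levels of the distal modest gains covered a wide range. A level is the number of reads in a peak multiplied by 1 factor per library, as scaled by the authors. In Sin3B+/+ replicate 1 the lowest level was 29.7, the median 205 and the highest 1770. In Sin3B+/+ replicate 2 the lowest was 31.5, the median 176 and the highest 1766. In Sin3B-/- replicate 1 the lowest was 58.1, the median 299 and the highest 2295. Sin3B-/- replicate 2 had a lowest level of 64, a median of 327 and a highest of 2566. Both Sin3B-/- medians lay above both Sin3B+/+ medians, while the 4 ranges overlapped widely, since peaks differ far more from each other than the genotypes do at 1 peak. That order belongs to the scaled values. All values of a library were whole multiples of a step to within 0.01, with steps of 0.228 for Sin3B+/+ replicate 1, 0.343 for Sin3B+/+ replicate 2, 0.625 for Sin3B-/- replicate 1 and 1 for Sin3B-/- replicate 2. Taking 1 step as 1 read, the members' median was 898 and 513 reads in Sin3B+/+ replicates 1 and 2 but 479 and 327 reads in Sin3B-/- replicates 1 and 2, which is the opposite direction. The direction of the difference in medians therefore rests on the authors' factors. The same division gave 8705855 and 4836132 reads over the table's peaks in Sin3B+/+, and 4541377 and 3102888 in Sin3B-/-. Depth over these peaks was thus lower in both Sin3B-/- libraries. It also differed within each genotype, and Sin3B+/+ replicate 2 was close to Sin3B-/- replicate 1. The distal modest gains held between 9.61% and 9.77% of the summed levels of the table in every library.

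**Figure D1:**
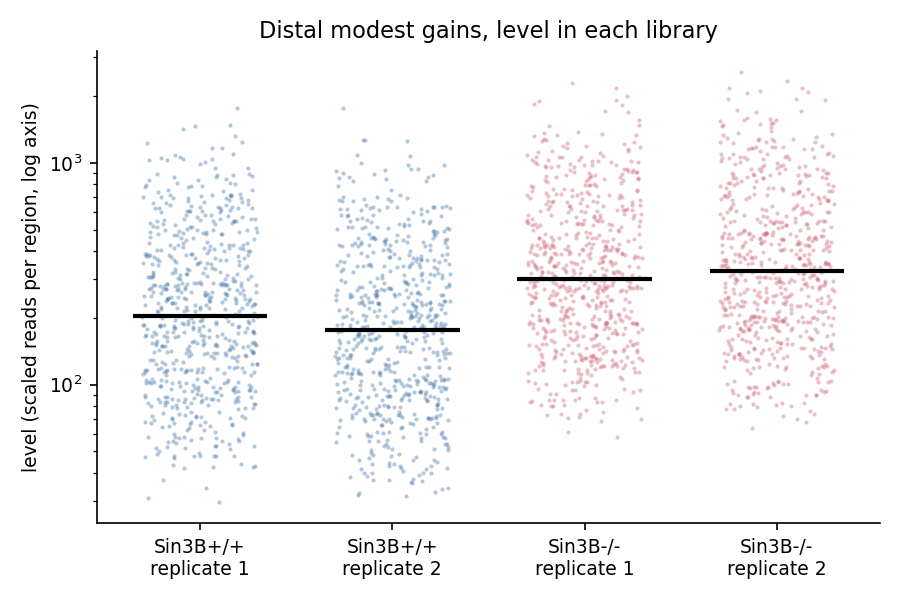
Level of each of the 651 distal modest gains (1 point each, log axis, scaled reads per peak) in the 4 libraries, with the median as a black line. The medians are 205 and 176 in Sin3B+/+ against 299 and 327 in Sin3B-/-, while the clouds of points overlap.

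At every one of the 651 peaks both Sin3B-/- libraries lay above both Sin3B+/+ libraries. The same was true of 95.7% of the table, and at 5332 of its 5332 peaks the genotypes did not overlap, so nothing is read from the count here or at any gene named below. The lower Sin3B-/- library stood a median of 1.44 times above the higher Sin3B+/+ library, with a range of 1.14 to 1.94. This ratio was at least 1.2 at 636 members and at least 1.5 at 227. The smallest gap was beside Tyrobp, an adaptor of myeloid and natural killer cell receptors, where the levels were 471 and 339 in Sin3B+/+ against 537 and 722 in Sin3B-/- replicates 1 and 2. The widest was annotated to Gm47735, where they were 43.6 and 43.9 against 84.97 and 88. The libraries also kept a common order, since Sin3B+/+ replicate 1 was above replicate 2 at 585 members and Sin3B-/- replicate 2 above replicate 1 at 490. These are 89.9% and 75.3% of the members, beside 87.7% and 72.0% of the whole table, so the order is not particular to the members.

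The log2 fold of the distal modest gains had a median of 0.76, with quartiles of 0.66 and 0.85, and ran from 0.43 to just under 1. The median of the whole table was 0.76 as well, and 320 members were under it. With the members ordered by mean level and split into 4 groups of like size, the median log2 fold was 0.89 in the lowest, 0.77 and 0.68 in the next groups, and 0.68 in the highest. The deposited table kept only peaks past a significance threshold, and the part of that threshold in this pattern was not tested. The member with the highest level lay upstream of Zfp869, where the levels were 1770 and 1766 in Sin3B+/+ against 2295 and 2566 in Sin3B-/-, a log2 fold of 0.46. The peaks with the next highest levels were annotated to 4921511I17Rik and Pdcd1. The lowest, annotated to Gm13816, had 29.7 and 31.5 against 58.1 and 64, a log2 fold of 0.997. The largest spread between 2 libraries of a genotype, relative to their mean, was at Gm15754, with 67.5 and 38.4 in Sin3B+/+ against 106 and 95 in Sin3B-/-.

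**Figure D2:**
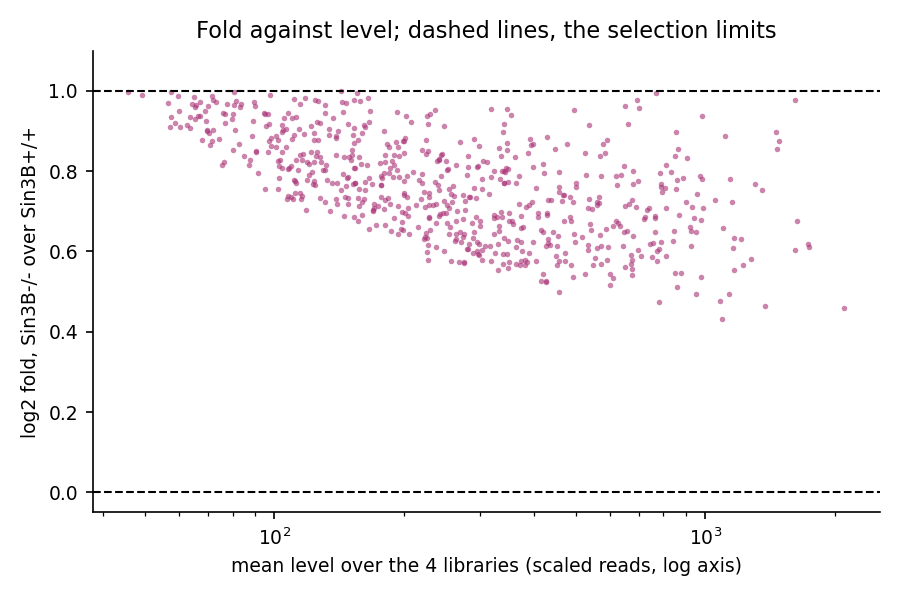
Log2 fold of mean level, Sin3B-/- over Sin3B+/+, against mean level over the 4 libraries (log axis) for the 651 distal modest gains, with the selection limits of 0 and 1 dashed. The lower edge of the points falls as the level rises, the smallest fold is 0.43, and of 4 groups by level the lowest has a median of 0.89 and the highest 0.68.

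The members nearest to the upper fold limit were annotated to Gm15529, Spint2 and Gm16287, with log2 folds of 0.999, 0.997 and 0.997. The distal peaks just beyond it were annotated to Gm33280, Mbp and Gm36953, with log2 folds of 1, 1.001 and 1.003. No distal peak lay near the lower limit. The smallest gain was annotated to Gm12866 and lay 31553 bases upstream of the TSS of Slc2a1, a glucose transporter gene, with a log2 fold of 0.43, and the smallest distal loss had -0.62. The nearest members inside the distance limit lay 1016, 1023 and 1032 bases from Nfkbil1, H3f3a and 4930505N22Rik. Just outside it, the peaks at Gm13006, Cd300lg and Slc25a28 lay 985, 958 and 958 bases away.

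limma, applied to log2(level + 1) of all 5332 peaks with Benjamini-Hochberg adjustment, called 651 of the 651 members higher in Sin3B-/- at an adjusted p of at most 0.05. Over the whole table it called 95.7% higher in Sin3B-/-, and the remaining 229 peaks lower, so every peak was called. The peaks had been kept for a difference, and nothing is read from the count. Adjusted p-values of the members ran from 1.08e-05 to 0.0449. The standard error of the log2 fold was 0.22 at each member, because limma pooled the variance over the table. Without Sin3B-/- replicate 2 the members' median log2 fold was 0.68. When every library was centred on its own median over the table, limma called 0 members, with 2 at an unadjusted p under 0.05. Over the whole table it then called 7.01% of the peaks higher and 229 peaks lower. The members' median log2 fold after centring was 0.01. Centring removes whatever shift the table's peaks share. The limits on the fold chose members around the table's median of 0.76, so the value near 0 after centring is not a result about them. A shift common to the cells of a genotype and one from the scaling of its libraries cannot be told apart in these data, since peaks without a difference were not analysed here.

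The distal modest gains were split almost evenly, 326 upstream and 325 downstream of their annotated gene. The median distance to the gene's edge was 8491 bases. Of the members, 214 lay over 1000 and up to 5000 bases away, 146 up to 10000, 250 up to 50000, 27 up to 100000 and 14 farther. They were annotated to 606 genes, of which 564 had 1 member, 39 had 2 and 3 had 3. The annotated gene was protein-coding for 338 members, a lincRNA for 115 and a processed pseudogene for 93, so the closest gene was often not a coding gene. In GENCODE M21, 640 of the 651 lay outside every gene body, and the other 11 overlapped one, such as H2-DMa and Ndst1. The nearest protein-coding TSS was a median of 22409 bases away, and for 271 members it belonged to the annotated gene. The farthest member from its annotated gene lay 305721 bases downstream of Ndufa4, a subunit of the respiratory chain. Its levels were 609 and 574 in Sin3B+/+ against 942 and 1047 in Sin3B-/-.

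**Figure D3:**
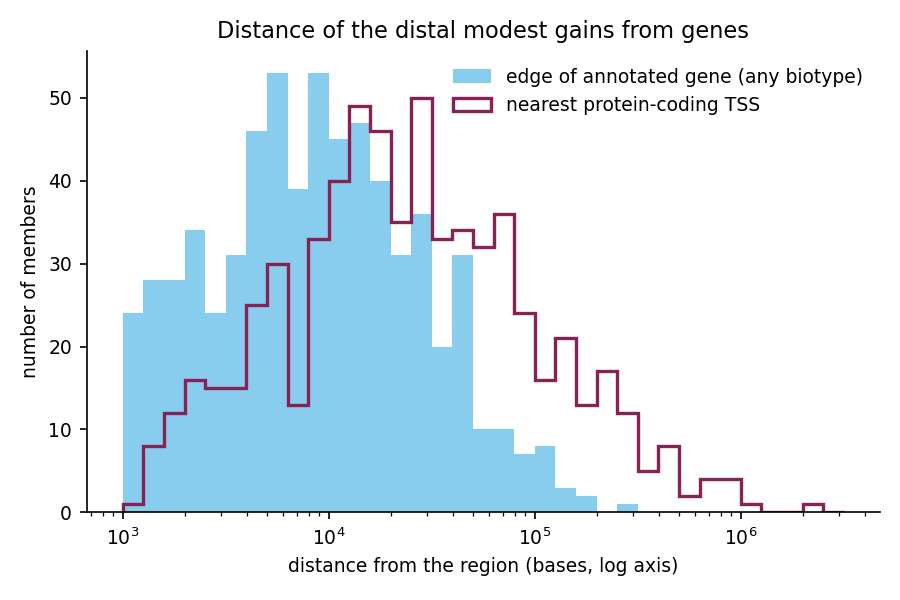
Number of distal modest gains by distance (bases, log axis) to the edge of the annotated gene of any biotype (filled) and to the nearest protein-coding TSS (line). The medians are 8491 and 22409 bases, and most members lie within 50000 bases of an annotated gene.

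Around genes of stem cell identity, 5 distal modest gains were annotated to transcription factors of hematopoietic stem cells. They belonged to Nr4a1, Egr1 and Lmo2. Upstream of Nr4a1, a nuclear receptor linked to quiescence, the levels were 725 and 550 in Sin3B+/+ against 1058 and 1095 in Sin3B-/- replicates 1 and 2. The mean was 638 ± 124 against 1077 ± 25.9 (SD, n = 2), a log2 fold of 0.76. A second member 5550 bases away, annotated to Grasp but nearest to the TSS of Nr4a1, had 97.0 and 101 against 191 and 198, and its CTCF core match is capitalised above. The gene's own start region was a doubled gain with a log2 fold of 1.28 at a lower mean level of 97.8, against 857 for the upstream peak.

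Egr1, an immediate early factor that helps keep stem cells quiescent and in place, had 3 members in its upstream region. The one closest to the gene had 682 and 512 in Sin3B+/+ against 1030 and 1197 in Sin3B-/-, a log2 fold of 0.90. The middle one had 126 and 99.1 against 228 and 195, and the outermost 110 and 96.0 against 192 and 214. Another member, downstream of Etf1, had the TSS of Egr1 as its nearest coding start, with 129 and 98.7 against 179 and 209. The peak closest to the gene thus had the highest level of the 4.

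Lmo2 encodes an adaptor of the SCL complex, and 3 members lay along its upstream side over 51592 bases. The nearest to the gene, 12699 bases upstream of its edge, had 115 and 98.0 in Sin3B+/+ against 167 and 251 in Sin3B-/-, a log2 fold of 0.97. The one annotated to Gm13881 had 92.4 and 102 against 191 and 169, and the one annotated to Gm13876 had 178 and 147 against 267 and 289. The 2 Sin3B-/- libraries differed from each other most at the nearest. Of the genes nearest by coding start but not by annotation, Tal1, which encodes SCL, had a member 8193 bases upstream with 194 and 157 against 275 and 289. Mycn had a member 130264 bases downstream of its TSS, with 357 and 344 against 495 and 513.

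Zfp36l2 encodes an RNA-binding protein that promotes mRNA decay, and its TSS was the nearest coding start of 2 members annotated to AC132455.2. They lay 73811 and 68349 bases downstream of that TSS, on both sides of a peak that was lost. The gains were at 147 and 143 in Sin3B+/+ against 218 and 237 in Sin3B-/-, and at 946 and 862 against 1175 and 1339, with log2 folds of 0.65 and 0.48. The loss between them had 663 and 824 in Sin3B+/+ against 497 and 473 in Sin3B-/-, a log2 fold of -0.62. Over the members, 3 lay within 50 kb of a loss, and these 2 were the ones within 20000 bases of one.

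Surface and signalling genes of stem cells had 2 annotated members. At Tgfbr1, a receptor of TGF-beta, the levels were 69.1 and 57.2 in Sin3B+/+ against 126 and 98 in Sin3B-/-, a log2 fold of 0.83. Procr encodes the protein C receptor that marks LT-HSCs, and its peak lay 9281 bases downstream, with the TSS of Mmp24 as nearest coding start. There the levels were 43.1 and 45.9 against 73.7 and 100. In the list of myeloid, erythroid and megakaryocyte genes, 3 were annotated. Beside Cebpe, a granulocyte transcription factor, the levels were 751 and 631 against 920 and 1100, a log2 fold of 0.55. The Maf peak, 85772 bases upstream, had 72.6 and 58.6 against 122 and 138. Bach2 encodes a repressor that favours lymphoid fate. Its peak lay 2028 bases downstream, with the TSS of Gja10 as nearest coding start, and had 59.3 and 41.5 against 94.97 and 90. The Cebpe peak had the highest level of these annotated members.

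No member was annotated to a gene of the lymphoid list, which did not include Bach2, or of the list of Sin3 and corepressor genes. By coding start, Tcf7, a T cell factor, had 1 at 22480 bases, with 102 and 86.7 against 163 and 167. Max had 2, at 90730 and 109840 bases from its TSS, and Tbl1x 1 at 77509 bases. Among cell cycle genes, Ccnd1, which encodes cyclin D1, had 1 annotated member. That peak lay 30971 bases upstream, with 81.9 and 73.0 against 141 and 144. Mki67 and Btg1 had 1 each by coding start, 19804 and 169922 bases away, with log2 folds of 0.62 and 0.58. The interferon list had 1 annotated member, 21902 bases downstream of Irf2, with 224 and 207 against 349 and 409. The adhesion and PI3K list had 5. The highest level was 21051 bases downstream of Pik3r1, which encodes the regulatory subunit of PI3K. That peak had 413 and 348 against 534 and 599 and a log2 fold of 0.58, the smallest of the 5. The others were annotated to Ddit4, Cd44, Arhgap15 and Cxcr2. The peak of Cd44, an adhesion receptor gene, lay 42322 bases upstream, with levels of 182 and 140 against 282 and 340. Together the 8 lists had 17 annotated members, and 37 with those assigned only by nearest coding start, an assignment added after the data were seen. Of all peaks of the table, 30 were annotated to the stem cell transcription factors, 17 to the surface, 28 to the myeloid and 5 to the lymphoid list. The cell cycle list had 16, the interferon list 17, the Sin3 list 17 and the adhesion list 23. The members made up 651 of the table's 5332 peaks, and nothing is read from these counts. By either assignment the lists held 1 to 13 members each, with median log2 folds from 0.62 to 0.92, beside 0.76 over all peaks of the table.

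**Figure D4:**
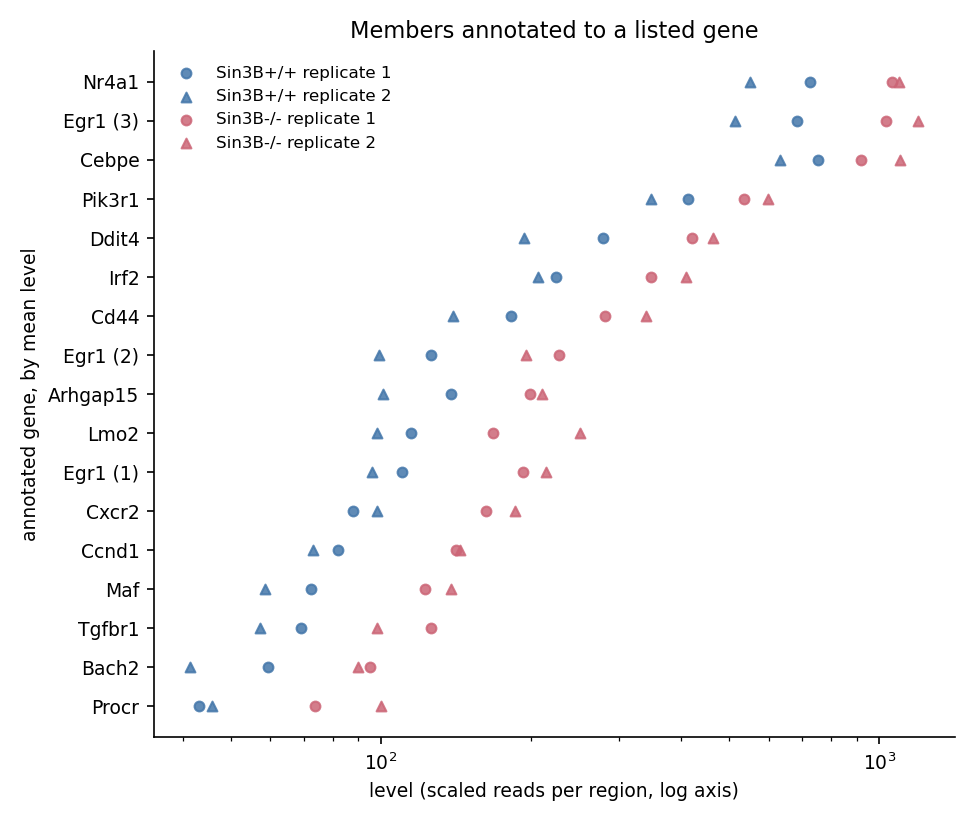
Level (log axis, scaled reads per peak) in each library of the 17 distal modest gains annotated to a gene of the lists, ordered by mean level, with the 3 Egr1 members numbered by level. In each row the 2 Sin3B-/- points lie to the right of the 2 Sin3B+/+ points, a feature of the selection.

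Some distal modest gains lay close together. Within 50 kb, 134 members had another member and 327, or 50.2%, had another gain of any kind. The share was 46.6% for modest gains at gene starts, 55.5% for those inside genes and 55.9% for distal doubled gains. There were 4 runs of 4 members and 6 of 3. The tightest run of 4 covered 13295 bases on chromosome 12, with Irf2bpl as the nearest coding start. Its member with the highest level, annotated to Gm10095, had 777 and 671 in Sin3B+/+ against 1125 and 1360 in Sin3B-/-. The second covered 29091 bases on chromosome 17 beside AC091309.2, where the peak shown above had 1320 and 1251 against 1717 and 2187. B4galt5 had 3 members upstream, the one with the highest level at 571 and 457 against 882 and 878. Members of a run share a stretch of chromosome and are not separate observations.

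For 60 members the annotated gene also had a peak of the table at its start. That peak was a modest gain for 54 and a doubled gain for 6, with no loss. The median log2 fold of these members was 0.78 and that of the gene starts 0.69, while the mean level was lower at the members, 313 against 637. The level was higher at the gene start in 41 of the 60.

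The windows of the distal modest gains differed in base content from those at gene starts. Their median GC content was 51.5%, against 61% at gene starts with modest gains, 53.5% inside genes, 46% in windows 5000 bases to either side, and 41.5% on a grid of 25576 windows over the genome. CpG-rich windows, with observed over expected CpG above 0.6 and GC above 50%, made up 7.22% of the members and 68.7% of the gene start gains. Repeats covered a median of 4% of a member's window, 17.5% of the windows to either side and 22.5% of the grid.

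ETS matches were in 21.2% of the members' windows (95% Wilson interval 18.2% to 24.5%), against 5.05% beside them, 4.77% on the grid, 15.98% over the whole table and 7.09% at gene starts. RUNX matches were in 13.2% (10.8% to 16.0%), against 5.28% beside, 4.86% on the grid, 8.36% in the table and 2.32% at gene starts. GATA matches were in 9.06% (7.09% to 11.5%), against 3.34%, 3.07%, 6.94% and 1.87% in the same sets. Modest gains inside gene bodies were closer to the members, with 18.1% for ETS, 9.22% for RUNX and 8.22% for GATA. These letters were more frequent in the members than in the windows beside them, with intervals that did not meet, and the intervals cover counting error only. AP-1 followed with 10.1% against 5.98% beside, and the CTCF core with 8.60% against 2.80%. The whole table had 7.43% for AP-1 and 7.30% for CTCF, and modest gains inside gene bodies had 8.16% and 8.53%. Distal doubled gains were close to the members too, with 13.2% for RUNX, 9.96% for AP-1 and 8.54% for CTCF. No test was made of the differences. Median GC content was 51.5% in the members and 46% beside them, and its part was not tested.

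The SCL E-box, at 17.8% of members and 15.2% beside, and MEIS, at 14.0% and 14.6%, had intervals that overlapped. IRF was at 4.30% and 2.56% and STAT (TTCNNNGAA) at 5.68% and 5.51%. CCAAT, the letters bound by NF-Y, was at 20.7% of members, 25.9% beside and 39.7% at gene starts. The cell cycle genes homology region (TTTGAA), an element of DREAM targets, was at 11.4% of members and 16.1% beside, with intervals that did not meet. It was at 19.6% on the grid, but at 8.81% over the whole table, 8.78% inside gene bodies and 7.67% at gene starts. The part of GC content in these shares was not tested. E2F letters (TTCCCGC) were in 7 members, or 1.08%, against 5.93% at gene starts. None of ETS, RUNX, GATA, AP-1, IRF and the CTCF core was in 306 members, 1 of them was in 261, 2 in 80 and 3 or more in 4.

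Members with and without a motif had close folds. The median log2 fold was 0.75 with ETS and 0.76 without, 0.73 and 0.77 for RUNX, and 0.80 and 0.76 for GATA. Members with the CTCF core were narrower, with a median width of 440 bases against 693, and had a lower median level, 158 against 270. The 15 with no mismatch had a median width of 366 and a median level of 131. The distal doubled gains held GATA in 16.4% and ETS in 25.6% of their windows. The distal losses held RUNX in 20.99% and the CTCF core in 1.23%, a count of 1 in 81.

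**Figure D5:**
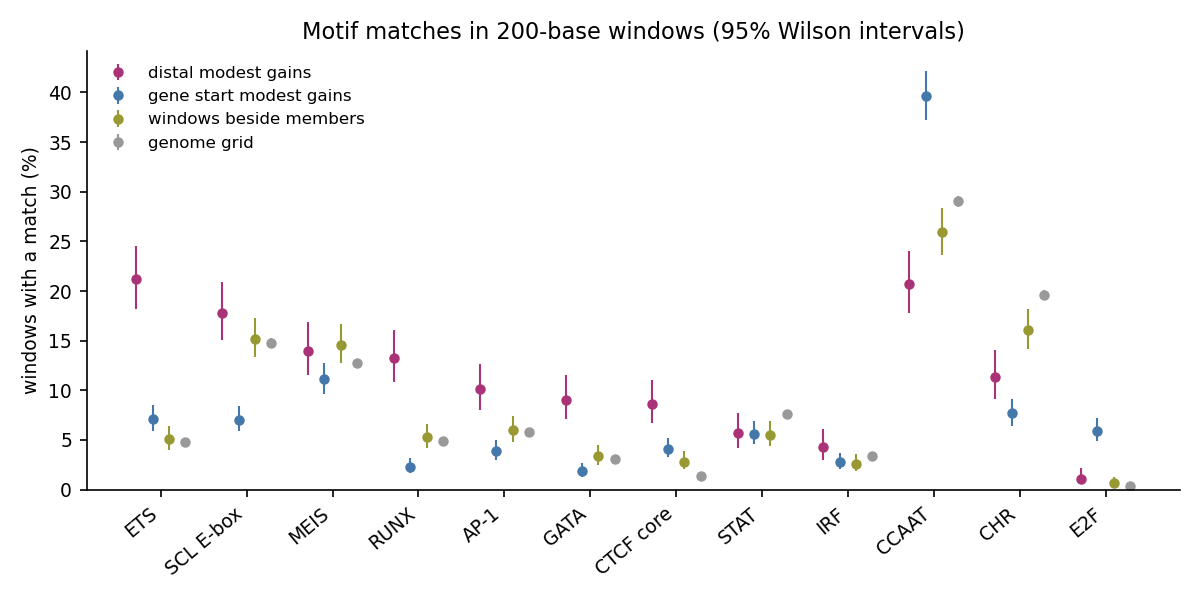
Share of 200-base windows with a match to each of 12 motifs (percent, with 95% Wilson intervals) in the 651 distal modest gains, the 1551 modest gains at gene starts, 1288 windows 5000 bases beside the members and 25576 windows of a genome grid. ETS is at 21.2% in the members and 5.05% beside them, while the SCL E-box and MEIS have overlapping intervals in these 2 sets.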

How the data were processed

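ATAC-Seq was measured in 4 libraries, 2 per genotype, grouped by their labels. The deposited table gives each peak a signal that the authors obtained by scaling its reads with 1 factor per library. The authors aligned with bowtie2, called peaks with MACS2 and used DiffBind with DESeq2. Its Conc, fold, p-value and FDR columns were not used. The labels list mm9, but 5330 of 5332 genes were found in GENCODE M21, 96.6% of them with the same start and end, so GRCm38 was used. The members and gene lists were chosen with earlier results of these data known. Peaks were named for listed genes, extremes of level, distance and spread, the selection limits, runs, and as the highest level with a motif outside chromosome 18. Analyses used Python 3.11.15, pysam 0.24.0, R 4.3.3 and limma 3.58.1, and limma was tested on simulated data, where it recovered 100% of 200 changed peaks among 5332 without a block. The planned count test was not run, since the table holds scaled values. Total library depth is unknown. Reads over the table's peaks, inferred from the step of each library, ran from 3102888 to 8705855 and were used for description only. Replicates share numbers but not mice. With 2 libraries per genotype a two-sided exact permutation test cannot go below 0.33. Motif windows were the central 200 bases, and the grid had a window every 100 kb. Alternatives changed distances, fold scale, centring, pseudocount, annotation, motif rules, the replicate block and the libraries used.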

Additional observations from a re-analysis of the deposited data

How the results depend on the processing

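The limits of these results lie in the selection and in 2 libraries per genotype. Asking for 10000 bases from a gene left 291 distal modest gains. Centring every library on its median over the table changed the members' median log2 fold to 0.013 and limma's calls to 0 of 651. Over the whole table, 7.01% of the peaks were then called higher. Taking peaks at or above the table's median level left 315 members, all 315 called, beside 99.8% of the 2666 peaks kept. Leaving out each library in turn gave 485 to 752 distal modest gains, a median log2 fold of 0.63 to 0.89, and 393 to 650 calls by limma, with the lowest without Sin3B-/- replicate 2. A lone library was then assumed to vary like the other genotype. With the replicate block limma called 646 members. Deviations of same-numbered libraries had a correlation of -0.10. The crossed pairing, chosen after seeing the data, called 651 members, beside 95.7% of the whole table called higher. With protein-coding genes alone 99.5% of members were outside gene bodies, and with all genes 98.3%. The share near another gain was 32.1% within 20000 and 63.3% within 100000 bases. CTCF core matches were in 2.30% of members with no mismatch, 14.1% in the central 400 bases and 20.9% in the whole peak, which is longer. No edgeR or DESeq2 fit was run.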
